A study of Drosophila melanogaster with 2 samples.

Results

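The transfer RNA (tRNA) genes of Drosophila melanogaster were taken as all genes of the tRNA class on the 6 chromosome arms of the Ensembl annotation, which gave 290 of 18164 genes. They were 71 to 186 bp long, with a median of 73 bp, and their symbols named 22 amino acid groups and 44 anticodons. The binding data were peak lists of the stress-response factor Xrp1, a basic leucine zipper (bZIP) protein that also carries an AT-hook, mapped by ChIP-seq (sequencing of DNA that was cross-linked to a protein and precipitated with it) in whole embryos aged 8 to 24 hours. All samples came from 1 transgenic strain, Xrp1-GFP, whose insertion gives an Xrp1-eGFP fusion that was precipitated through its GFP tag. There was 1 group of 2 biological replicates and no untreated or mutant group, so the data describe where the tagged protein was found and compare no conditions. The embryo holds many cell types, and a peak list from whole embryos does not tell them apart. Neither the promoter nor the copy number behind the fusion protein is given in the labels.

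A tRNA gene is read by RNA polymerase III from a promoter that lies inside the gene itself. The factor TFIIIC binds the A box and the B box, short stretches that encode the D arm and the T arm of the tRNA, and places TFIIIB just upstream of the start. Many copies of a tRNA gene are identical, and they are often found in tight groups. A summit is the single base that the authors marked within a peak, which need not be its middle. A tRNA gene is called occupied here when a summit of the conservative list lay within 500 bp of either edge of the gene. The conservative list is the strictest list of both replicates.

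The summits at the most strongly bound tRNA genes lay beside the genes, not in them, and sequences from 4 of the 5 strongest peaks are shown first for that reason. Each sequence runs 50 bases to either side of the summit on the plus strand of dm6, and capitals mark the summit base with 5 bases on either side of it. The coordinates are 3R:8669332-8669432 for Tyr-GTA-1-8, X:3427704-3427804 for Gln-TTG-2-1, 3R:19671848-19671948 for Val-CAC-2-5 and 3R:24112712-24112812 for Leu-TAA-2-1.
tRNA:Tyr-GTA-1-8: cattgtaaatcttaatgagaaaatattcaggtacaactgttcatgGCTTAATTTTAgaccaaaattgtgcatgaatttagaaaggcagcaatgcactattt
tRNA:Gln-TTG-2-1: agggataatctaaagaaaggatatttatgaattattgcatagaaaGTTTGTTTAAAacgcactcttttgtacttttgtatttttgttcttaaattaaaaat
tRNA:Val-CAC-2-5: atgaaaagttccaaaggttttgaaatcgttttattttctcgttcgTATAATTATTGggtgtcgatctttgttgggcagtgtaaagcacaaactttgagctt
tRNA:Leu-TAA-2-1: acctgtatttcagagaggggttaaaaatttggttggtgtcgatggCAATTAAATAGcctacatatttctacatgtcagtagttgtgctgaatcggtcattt

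Of the 3 tRNA genes with a conservative summit inside the gene, Pro-TGG-1-2 (3R:17619961-17620032) and Pro-CGG-2-3 (3L:18618390-18618461) are shown as whole genes. They are shown as examples of a summit inside the gene. In both, the marked summit base falls between the promoter boxes. Both genes lie on the plus strand and are 72 bases long, and they are identical at 65 positions and differ at 7. Capitals mark the A box, which comes first, and the B box, GTTCNANNC. The summits fell 45 bases past the first base of Pro-TGG-1-2 and 40 bases past that of Pro-CGG-2-3. Both peaks were 364 bp wide, with the summit 182 bp from the start of the peak, at its middle. The peaks are longer than the genes, so these summits do not place binding between the boxes. The sequence of Pro-TGG-1-2 has 5 copies and that of Pro-CGG-2-3 has 3, so reads from the gene alone could belong to a copy elsewhere.
tRNA:Pro-TGG-1-2: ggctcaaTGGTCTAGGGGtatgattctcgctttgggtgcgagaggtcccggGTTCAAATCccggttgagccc
tRNA:Pro-CGG-2-3: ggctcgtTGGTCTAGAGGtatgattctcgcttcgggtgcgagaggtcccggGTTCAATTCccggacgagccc

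The boxes themselves were found in nearly every member. Searched on the sense strand, the A box was present in 270 of 290 tRNA genes (93.1%) and the B box in 271 (93.4%), at median starts of base 8 and base 53. In windows of 73 bp placed 500 bp beyond each edge of the genes, which were searched on both strands, 7.9% of 580 held the A box and 4.1% the B box. The occupied genes held the A box in 43 of 44 cases and the B box in 39 of 44, and the other genes in 227 and 232 of 246. All occupied genes without the B box word were Ala-AGC genes, and no Ala-AGC gene, occupied or not, held that word.

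In the conservative list, 44 of the 290 tRNA genes (15.2%, 95% Wilson interval 11.5 to 19.8%) were occupied. The same distance to the whole gene held for 27.7% of all genes, a rule that gives long genes more room, so the distance to the annotated start is the closer comparison. By that rule 41 tRNA genes (14.1%, 10.6 to 18.6%) had a conservative summit within 500 bp of their start, against 20% of all genes and 23.2% of protein-coding genes. The tRNA interval lies wholly below both of those shares at 500 bp. The order depended on the distance: within 1000 bp of the start the shares were 22.8% of tRNA genes (18.3 to 27.9%) and 24.6% of all genes, and within 2000 bp they were 37.9% (32.5 to 43.6%) and 31.6%, with tRNA genes then the higher. From the gene edges at 500 bp, the thresholded list of replicate 1 alone gave 29 occupied tRNA genes and that of replicate 2 alone 24. Among other short RNA classes, 16 of 269 small nucleolar RNA genes (5.95%, 3.69 to 9.44%) had such a summit, 13 of 32 small nuclear RNA genes (40.6%, 25.5 to 57.7%) did, and 0 of 99 ribosomal RNA genes (0 to 3.74%) did. In the conservative list the tRNA genes therefore lay above the small nucleolar RNA genes and below the small nuclear RNA genes, with no overlap of the intervals in either case. In the thresholded list of either replicate alone the tRNA and small nucleolar RNA intervals overlapped. They were 6.76 to 13.6% and 2.85 to 8.09% in replicate 1, and 5.34 to 11.6% and 2.03 to 6.71% in replicate 2. The small nuclear RNA interval stayed above that of tRNA genes in both. These intervals cover counting error only, and tRNA genes that share a peak are not independent of one another.

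The 44 occupied genes shared 32 conservative peaks at 30 of the 144 tRNA loci, a locus being a lone gene or a group of genes with gaps of at most 5000 bp. Of the peaks, 21 lay near 1 tRNA gene and 11 near at least 2, with at most 3 genes to a peak. A pair of the peaks overlapped each other at Ala-AGC-2-8 on 3R.

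The ranked list of the comparison between the replicates, to which no threshold on reproducibility was applied, put tRNA genes above all genes. Within 500 bp of the start, 245 of 290 tRNA genes (84.5%, 79.9 to 88.2%) had a ranked summit, against 65.1% of all genes and 77.0% (71.6 to 81.6%) of small nucleolar RNA genes. For small nuclear RNA genes it was 26 of 32 (81.2%, 64.7 to 91.1%), whose interval holds the tRNA share. Measured from the gene edges the count of tRNA genes was 246. By that rule 72.85% of all genes had a ranked summit, and 60.5% of lone tRNA genes (49.3 to 70.8%). The excess therefore lay with tRNA genes in groups and did not hold for lone ones. At a global irreproducible discovery rate (IDR, the expected share of peaks whose rank does not hold between replicates) of at most 0.05, 72 tRNA genes (24.8%, 20.2 to 30.1%) had a summit within 500 bp of the start, beside 26.6% of all genes, so that the interval for tRNA genes then held the share of all genes.

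The strength of the ranked summits showed the same shift. A summit from the strongest 25% of the ranked list lay within 500 bp of the start of 53.4% of tRNA genes and of 41.3% of all genes. For the strongest 10% the shares were 20% of tRNA genes and 23.8% of all genes. Ranked summits of middling strength were thus more frequent at tRNA genes than at genes in general, and those of the highest strength were not. Small nuclear RNA genes had shares of 53.1% for the strongest 25% and 40.6% for the strongest 10%. Small nucleolar RNA genes had 25.3% and 8.9%. The tRNA share for the strongest 25% was near that of small nuclear RNA genes and is not particular to tRNA genes.

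**Figure D1:**
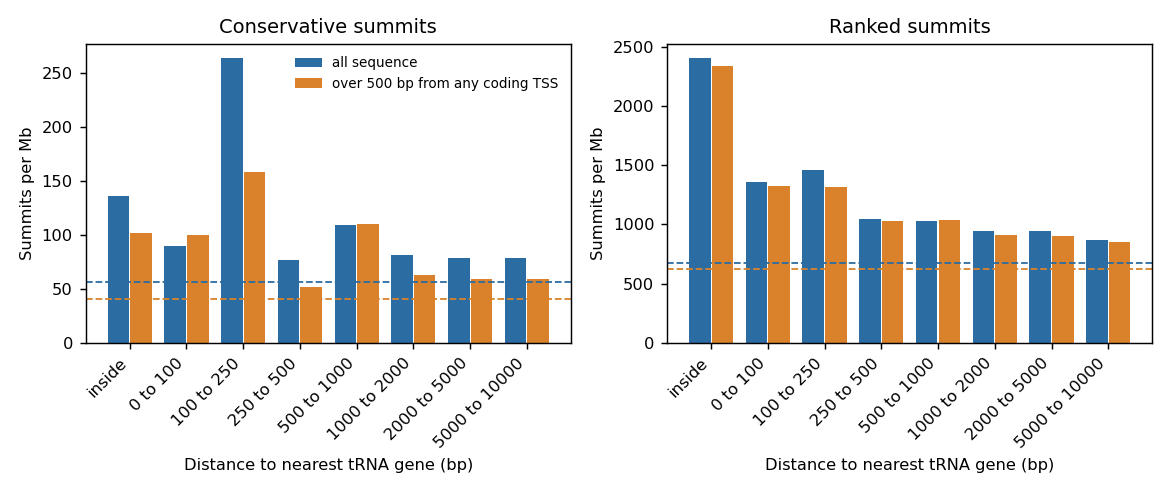
Summits per Mb of sequence by distance to the nearest tRNA gene, for the conservative list (left) and the ranked list of the replicate comparison (right), over all sequence and over sequence more than 500 bp from any coding start, with dashed lines at the value for the 6 arms. Conservative summits reach 263.8 per Mb between 100 and 250 bp from a tRNA gene, and ranked summits reach 2406.2 per Mb inside the genes.

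Counted per base, conservative summits were densest beside the genes. The 6 arms held 56.3 conservative summits per Mb. Inside tRNA genes there were 3 summits, or 136.2 per Mb, and within 100 bp of an edge there were 5, or 89.4 per Mb. Between 100 and 250 bp there were 17, or 263.8 per Mb, which was 4.69 times the density of the arms, and between 250 and 500 bp there were 7, or 77.0 per Mb. Between 500 and 1000 bp it was higher again, with 18 summits and 109.4 per Mb, and from 1000 bp out to 10000 bp it held between 78.8 and 81.7 per Mb, so that it did not fall steadily with distance. With sequence within 500 bp of a coding start left out, the densest stretch was again that between 100 and 250 bp, with 9 summits, 158.3 per Mb and 3.91 times the density of the arms (40.5 per Mb). The stretch between 500 and 1000 bp came next, with 15 summits and 110.5 per Mb.

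Ranked summits were instead densest in the genes. The 53 ranked summits inside tRNA genes amounted to 2406.2 per Mb, 3.57 times the 673.3 per Mb of the arms, and the density fell to 1358.6 per Mb within 100 bp and 869.9 per Mb between 5000 and 10000 bp. The fall with distance was much the same away from coding starts, where 46 summits inside the genes gave 2340.6 per Mb.

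The strongest conservative peak at a tRNA gene belonged to Tyr-GTA-1-8 (3R:8669081-8669174, minus strand), a gene for a tyrosine tRNA whose sequence occurs once. Its signal, the authors' own measure of peak height, was 881.9 in the conservative list, rank 130 of 7537. The overlapping peak had a signal of 592.4 in replicate 1 and 280.8 in replicate 2, at percentile 99.8 of its ranked list in both. Signals of different lists are not on one scale, and the percentile of a peak within its own list is the value that can be set side by side. The summit lay 208 bp upstream of the tRNA gene and 236 bp upstream of a coding start of CG8036, a gene whose body contains the tRNA gene. The neighbouring Tyr-GTA-1-6 and Tyr-GTA-1-7 shared a much weaker peak of signal 61.3, present at percentile 86.7 in replicate 1 and 86.3 in replicate 2.

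Gln-TTG-2-1 (X:3427452-3427523, minus strand), a lone gene for a glutamine tRNA, had the strongest peak among tRNA genes with no coding start within 500 bp. Its signal was 328.4 in the conservative list, 239.5 in replicate 1 and 93.9 in replicate 2, at percentiles 98.8 and 97.9. The summit was 231 bp upstream of the tRNA gene, and the nearest annotated start of any other gene, that of CG14269, was 8053 bp away. The tRNA gene lies within the body of CG12535.

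Val-CAC-2-5 (3R:19672277-19672349, minus strand) followed with a signal of 283.4, and its peak had a signal of 183.9 in replicate 1 and 105.4 in replicate 2, at percentiles of 98.2 in both. Its summit was downstream of the gene, 451 bp from the first base, and 448 bp downstream of a start of Naam, which encodes a nicotinamidase and contains the tRNA gene. By distance to the gene edge no coding start lay within 500 bp of this tRNA gene, although one lay within 500 bp of the summit.

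Leu-TAA-2-1 (3R:24112964-24113047), a lone gene of unique sequence, had a peak of signal 199.2, with 131.9 in replicate 1 and 63.0 in replicate 2, 202 bp upstream of the tRNA gene. Asp-GTC-1-4 and Asp-GTC-1-5 (2L:8541552-8541832 for the pair), of a sequence with 12 copies, shared a peak of signal 183.5, with 132.0 in replicate 1 and 71.5 in replicate 2. That summit lay 113 bp upstream of a start of Sema1a, the gene for the guidance cue semaphorin 1a. Pro-CGG-2-1 (X:18565764-18565835) had a peak of signal 167.3, with 118.5 in replicate 1 and 52.3 in replicate 2, and its summit lay 142 bp upstream of a start of Bx, which encodes a LIM-domain protein. In each of these the percentile was above 95 in both replicates, and it was the higher one in replicate 1.

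The peaks at His-GTG-1-3 (signal 226.5, percentiles 98.0 and 95.2 in replicates 1 and 2), at Trp-CCA-2-2 with Gly-GCC-1-9 (149.7, 95.1 and 95.4) and at Trp-CCA-2-6 with Gly-GCC-1-13 (111.8, 94.97 and 90.7) lay on 2R. All 3 summits stood upstream of a coding start, 70 bp from that of CG8490, 169 bp from that of CG30122 and 92 bp from that of tud, the founding Tudor-domain gene. Phe-GAA-1-2 on X had a signal of 115.5, at percentiles 94.3 and 90.7, with its summit 75 bp upstream of a start of RpL17, a ribosomal protein gene. Thr-AGT-1-4 on 3R had a signal of 105.0 and stood higher in replicate 2, at percentile 95.5, than in replicate 1, at 90.5.

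Further tRNA genes with no coding start within 500 bp had weaker peaks. Pro-AGG-1-2 on 2L had a signal of 128.7, at percentiles 94.8 and 93.5 in replicates 1 and 2, and the nearest start of another gene lay 10235 bp from its summit. Arg-CCT-1-2 and Arg-CCT-1-3 on 2R shared a peak of 113.6, with 59.9 in replicate 1 and 46.4 in replicate 2. The genes point away from the summit between them, which stood 205 bp upstream of one and 246 bp upstream of the other. Ala-TGC-2-1 on 2R had a peak of 105.3, at percentiles 94.4 and 89.1, and Thr-AGT-1-2 a peak of 91.0, at 91.4 and 90.6.

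Lys-TTT-1-1, which lies within Btk, the gene for a Tec-family tyrosine kinase, had a peak of 87.3, at percentile 89.4 in replicate 1 and 94.8 in replicate 2. Leu-CAG-1-6 within Sarm, the gene for an NADase of axon degeneration, had one of 85.1, at 90.3 and 92.2. It was the one occupied gene of a group of 6 leucine tRNA genes. Ala-CGC-1-2 and Ala-CGC-1-3 on 2R shared a peak of 80.5 that lay between them and stood higher in replicate 1, at percentile 91.6, than in replicate 2, at 84.8. The peak at Leu-AAG-1-3 on 2R, of signal 78.9, was also 209 bp from the start of a U3 small nucleolar RNA gene, so the pair cannot be told apart at this peak.

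The remaining peaks were among the weakest. Val-TAC-1-1 and Val-TAC-1-2 on 3L, the only genes with this anticodon, shared a peak of signal 63.9, at percentiles 87.1 and 87.3 in replicates 1 and 2. Ser-AGA-2-4 on 2L had one of 73.2, at 87.7 and 90.5, whose summit was also 51 bp from a start of the noncoding gene CR44003. Ile-AAT-1-8 on 2R had one of 53.2, at 88.1 and 90.1, and Gly-TCC-1-1 on 3R one of 50.5, at 87.3 and 86.7. The overlapping pair of peaks at Ala-AGC-2-8 had signals of 71.99 and 23.9, the lower of which was the weakest at any tRNA gene, and both met the same peak in each replicate, at percentiles 89.0 and 92.8.

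**Figure D2:**
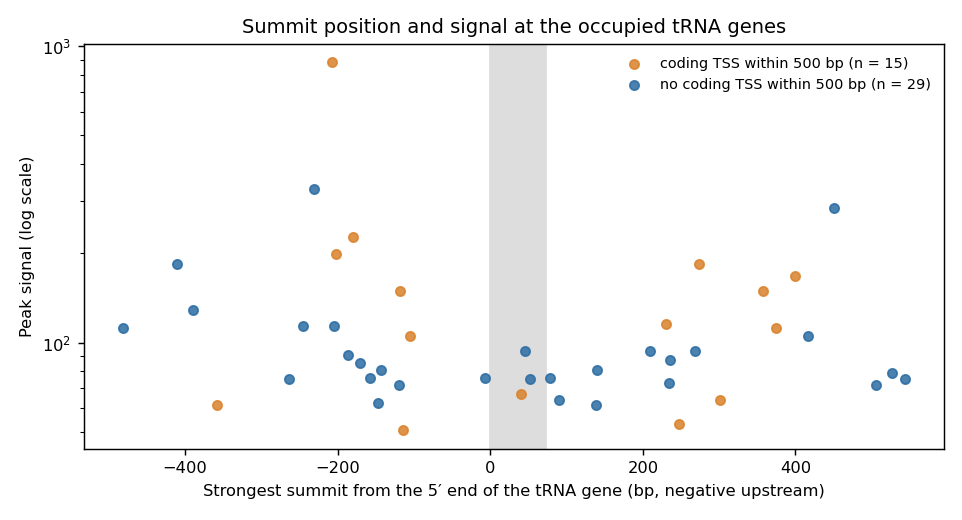
Peak signal (log scale) against the position of the strongest conservative summit, in bp from the 5′ end of each of the 44 occupied tRNA genes along its strand, with the median gene length of 73 bp shaded. The 15 genes with a coding start within 500 bp include the highest signal, 881.9, and the 3 summits inside genes lie between 67.2 and 93.95.

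The summit stood upstream of the 5′ end at 21 of the occupied genes, downstream of the 3′ end at 20, and inside the gene at 3. The median distance to the gene was 183.5 bp. The plot of signal against position shows points on both sides of the genes at distances up to 500 bp. The 3 genes with a summit inside were Pro-TGG-1-2 (signal 93.95, with 51.8 in replicate 1 and 39.7 in replicate 2), Ile-AAT-1-6 on 2R (75.6, with 40.4 and 33.5) and Pro-CGG-2-3 (67.2, with 48.0 and 32.4). All 3 peaks were weaker than the median of the conservative list, 122.9. The peak in Pro-TGG-1-2 also served the neighbours Ala-AGC-2-2 and Ala-AGC-2-3, and that in Ile-AAT-1-6 served Ile-AAT-1-5 and Ile-AAT-1-7. The summits at Pro-TGG-1-5 on 3R (signal 76.0) and at Phe-GAA-1-4 on 2R (75.9) fell 7 bp outside the gene.

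As a group the tRNA peaks were weak within the conservative list. Their median signal was 89.2, with a range of 23.9 to 881.9 and quartiles of 72.9 and 133.9, against a median of 122.9 and quartiles of 84.1 and 210.5 over all conservative peaks. The median lay at percentile 29.4 of the list. In replicate 1's thresholded list the median signal of the peaks at tRNA genes lay at percentile 48.05, near the middle, and in replicate 2's at 25.4. With the list cut into 4 equal parts from the strongest to the weakest, 4, 5, 9 and 14 of the 32 peaks fell in each. The 14 peaks with a coding start within 500 bp of one of their tRNA genes had a median signal of 113.7, with a range of 50.5 to 881.9. The other 18 had a median of 82.8, with a range of 23.9 to 328.4, and the ranges overlapped widely.

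Most of the tRNA peaks had 1 fixed width. The most frequent width in the conservative list was 364 bp, shared by 71.5% of its peaks and by 28 of the 32 tRNA peaks. In the weakest of the 4 parts of the list 99.8% of peaks had that width, and in the strongest 7.3%. At 364 bp a peak is longer than most of the distances reported here. The other 4 tRNA peaks were those of Tyr-GTA-1-8, Gln-TTG-2-1, Val-CAC-2-5 and Leu-TAA-2-1, at widths of 314, 224, 190 and 137 bp.

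**Figure D3:**
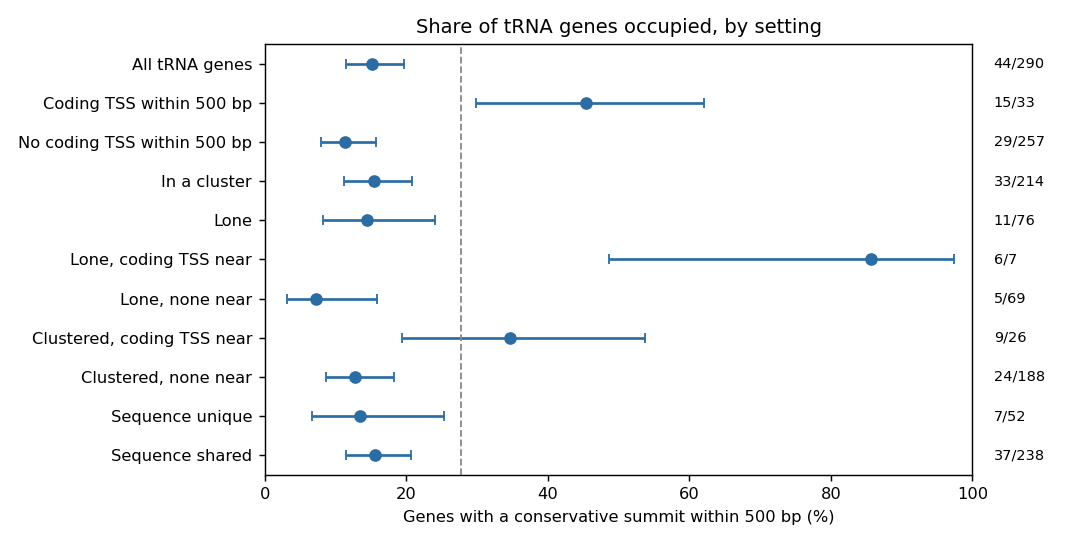
Percent of tRNA genes with a conservative summit within 500 bp of the gene, by setting, with 95% Wilson intervals, counts at the right and a dashed line at the 27.7% of all genes that pass the same rule. Genes with a coding start within 500 bp reach 45.5% and the rest 11.3%.

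In the conservative list, occupancy was more frequent where a coding start was close. Of the 33 tRNA genes with a coding transcription start site (TSS) within 500 bp of the gene, 15 (45.5%, 29.8 to 62.0%) were occupied, and of the other 257, 29 (11.3%, 7.97 to 15.7%) were. The intervals do not overlap. In replicate 1's thresholded list the counts were 11 of 33 (33.3%, 19.8 to 50.4%) and 18 of 257 (7.0%, 4.48 to 10.8%), whose intervals do not overlap either. In replicate 2's they were 6 of 33 (18.2%, 8.61 to 34.4%) and again 18 of 257, and there the intervals overlap. Among all genes that are not protein-coding, a conservative summit lay within 500 bp of the start of 17.9% of those whose own start is within 500 bp of a coding TSS and of 8.08% of those with none so close. By the same distances from the start, 14 of 32 tRNA genes (43.8%, 28.2 to 60.7%) and 27 of 258 (10.5%, 7.29 to 14.8%) had a summit. The first interval lies above its background of 17.9% and the second holds its background of 8.08%.

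By distance to the nearest coding TSS, 5 of 12 tRNA genes within 250 bp were occupied, 10 of 21 between 250 and 500 bp, 10 of 47 between 500 and 1000 bp, and 4 of 45 between 1000 and 2000 bp. Beyond that, 7 of 55 between 2000 and 5000 bp and 8 of 110 farther out were occupied. Ranked summits were frequent at every distance, with 11 of 12, 21 of 21, 41 of 47, 40 of 45, 42 of 55 and 91 of 110 tRNA genes. With a coding TSS within 500 bp, 32 of 33 genes (97.0%, 84.7 to 99.5%) had one, and without, 214 of 257 (83.3%, 78.2 to 87.3%), with overlapping intervals. Of the 32 tRNA peaks, 12 had a summit within 500 bp of a coding TSS, 10 of them upstream of it. At these the tRNA gene and the coding gene cannot be told apart as the bound feature. For 18 peaks no start of any gene other than a tRNA gene lay within 500 bp of the summit.

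Grouping by cluster did not separate the conservative calls. Of 76 lone tRNA genes 11 (14.5%, 8.28 to 24.1%) were occupied, and of 214 genes in 68 clusters 33 (15.4%, 11.2 to 20.9%) were. Among lone genes 6 of 7 with a coding TSS within 500 bp were occupied and 5 of 69 without one (7.25%, 3.13 to 15.9%). The lone genes away from coding TSSs were Gln-TTG-2-1, Val-CAC-2-5, Lys-TTT-1-1, Pro-TGG-1-5 and Ala-AGC-2-1. In clusters the counts were 9 of 26 and 24 of 188 (12.8%, 8.73 to 18.3%). Ranked summits did separate them, with 200 of 214 clustered genes (93.5%, 89.3 to 96.1%) and 46 of 76 lone genes (60.5%, 49.3 to 70.8%). The 72.85% of all genes by the same rule lies below the first interval and above the second. A clustered gene also lies within reach of summits at its neighbours, which a lone gene does not.

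Within a cluster the conservative peaks touched some genes and not others. Of the 68 clusters 19 held an occupied gene, and in 6 of the 19 every gene was occupied. The 2 largest clusters held 11 genes each. In that on 3R (3R:17617761-17631750), with genes for alanine, proline, threonine and valine tRNAs, 3 genes were occupied, all by the peak in Pro-TGG-1-2, whose signal of 93.95 was also the highest ranked signal of the cluster. In that on 2R (2R:6161535-6171759), with genes for arginine, asparagine, isoleucine and lysine tRNAs, none was occupied, and the strongest ranked summit had a signal of 49.4. All 11 genes of both clusters had a ranked summit within 500 bp.

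There were 3 clusters of 7 genes. That of Ile and Leu genes on 2R had 3 occupied genes, with a highest signal of 75.6. That of Glu and iMet genes on 2R had 0 occupied genes but a ranked summit of signal 134.1, and that of Arg and Ser genes on X (X:14014814-14017284) had 0 occupied genes and no ranked signal above 23.0. The 3 clusters had a ranked summit within 500 bp of every gene.

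**Figure D4:**
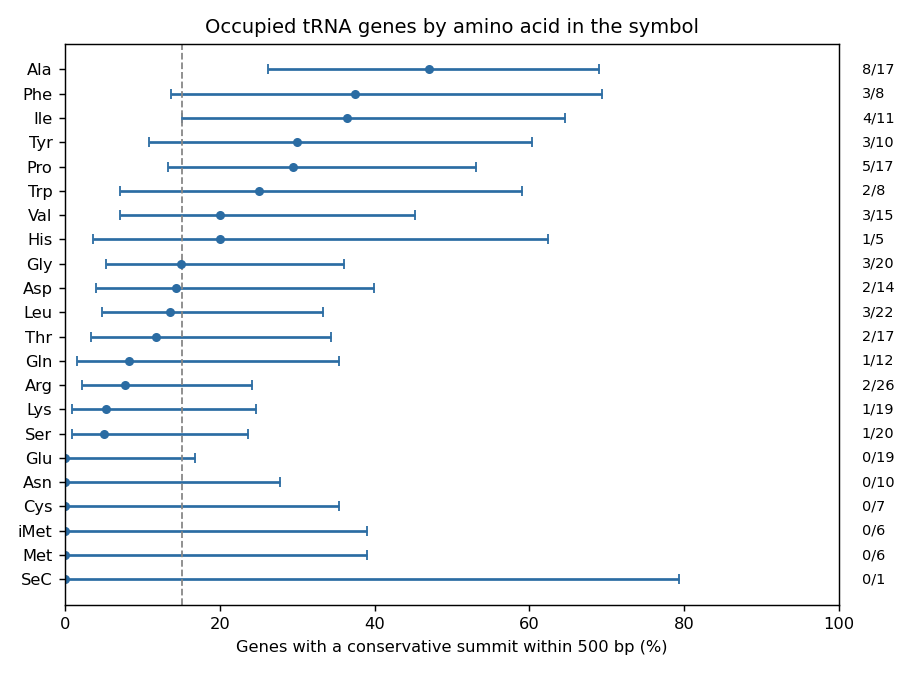
Percent of tRNA genes with a conservative summit within 500 bp of the gene by the amino acid in the gene symbol, with 95% Wilson intervals, counts at the right and a dashed line at the 15.2% of all tRNA genes. Ala genes stand highest at 47.1%, and 6 groups stand at 0.

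By amino acid, occupied genes were found in 16 groups and none in 6. Genes for alanine tRNA led with 8 of 17 (47.1%, 26.2 to 69.0%), whose interval lies above the 15.2% of all tRNA genes. None of the 8 had a coding TSS within 500 bp, and 5 peaks accounted for them. They comprised 5 of 12 genes with the anticodon AGC, 2 of 3 with CGC and 1 of 2 with TGC. The Ala-AGC genes touched by peaks were Ala-AGC-2-2, Ala-AGC-2-3, Ala-AGC-2-7 and Ala-AGC-2-8 on 3R and Ala-AGC-2-1 on 3L. The signals ran from 62.3 at Ala-AGC-2-1, a lone gene within nmo, to 105.3 at Ala-TGC-2-1.

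Phe genes followed with 3 of 8 occupied, Ile genes with 4 of 11, Tyr genes with 3 of 10 and Pro genes with 5 of 17. The 5 Pro genes had a peak each, while the 4 Ile genes shared 2 peaks. The intervals of these 4 groups reached or held the share of all tRNA genes. The lowest shares above 0 were 1 of 20 Ser genes and 1 of 19 Lys genes. No conservative summit lay within 500 bp of any of 19 Glu, 10 Asn, 7 Cys, 6 Met and 6 iMet genes or of the single SeC gene, for selenocysteine. For Glu genes the interval reached 16.8%, so that a share equal to that of all tRNA genes was within counting error. All 19 Glu genes and all 6 iMet genes, which serve initiation, nevertheless had a ranked summit. With 22 groups and genes that share peaks, the order of the groups is a description.

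Occupancy hardly differed by the other properties of the genes. The 290 genes had 95 distinct sequences, 238 genes had an identical copy and 1 sequence occurred 13 times. Of 52 genes with a unique sequence 7 (13.5%, 6.68 to 25.3%) were occupied, and of the 238 others 37 (15.5%, 11.5 to 20.7%). Inside the body of a protein-coding gene 20 of 134 tRNA genes were occupied, 8 of 59 on the strand of the host gene and 12 of 75 on the opposite strand. Outside coding genes 24 of 156 were. By arm the counts were 5 of 41 on 2L, 18 of 98 on 2R, 5 of 48 on 3L, 13 of 79 on 3R and 3 of 24 on X, and arm 4 carried no tRNA gene.

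Identical copies bear on where reads can be placed. In words of 50 bases, 238 of the 290 genes held no word that occurs once in the genome, but the 500 bp on either side of a gene had a median of 98.9% unique words. At 43 of the 44 occupied genes at least 90% of the flanking words were unique, as at 269 of all 290 genes. The exception among the occupied genes was Leu-AAG-1-3, at 57.6%, the same share as at its unoccupied neighbour Leu-AAG-1-2. A peak beside most tRNA genes can thus be placed by its flank. One whose reads come from the gene alone could belong to a copy elsewhere. The labels do not say how reads that match several places were treated.

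**Figure D5:**
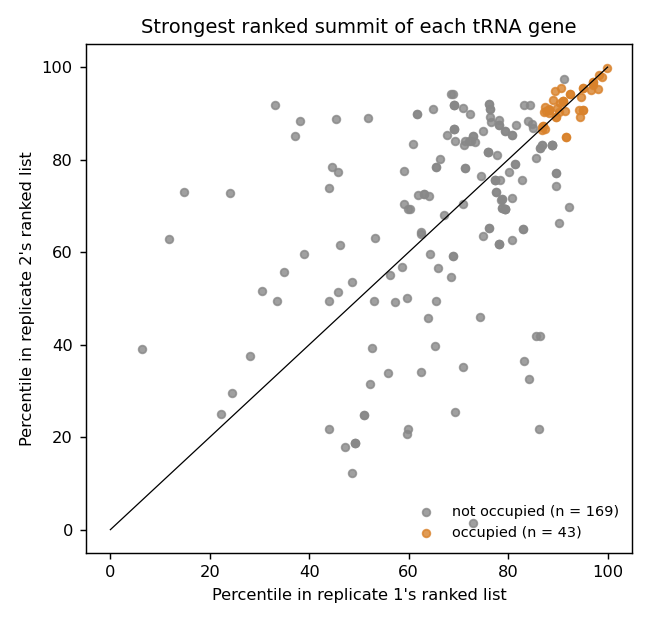
Percentile of the strongest ranked summit within 500 bp of each tRNA gene in the ranked list of replicate 1 (horizontal) and of replicate 2 (vertical), for the 212 genes with one in both lists, with a line of equal percentiles. The 43 occupied genes, which were selected on both replicates, all lie above percentile 84 on both axes, and the 169 others spread down to 6.3 and 1.5.

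The thresholded lists of the replicates differ in length, with 7520 peaks in that of replicate 1 and 4402 in that of replicate 2. In the thresholded list of replicate 1, 28 tRNA genes (9.66%, 6.76 to 13.6%) had a summit within 500 bp of their start, against 19.7% of all genes, and in that of replicate 2, 23 (7.93%, 5.34 to 11.6%), against 12.6% of all genes. In both lists the tRNA interval lay below the share of all genes, and the tRNA intervals of the lists overlap each other. Of the 32 conservative tRNA peaks 17 overlapped a peak of replicate 1's list and 10 one of replicate 2's, against 81.7% and 54.9% of all conservative peaks. The overlap was with both lists for 7 peaks, with replicate 1's alone for 10, with replicate 2's alone for 3 and with neither for 12. The peaks of Tyr-GTA-1-8, Gln-TTG-2-1, Val-CAC-2-5, Leu-TAA-2-1, Asp-GTC-1-4 with Asp-GTC-1-5, Trp-CCA-2-2 with Gly-GCC-1-9, and Pro-AGG-1-2 were those in both.

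In the ranked lists every one of the 32 tRNA peaks was present in both replicates, at a median percentile of 90.8 in replicate 1 and 91.8 in replicate 2, beside 94.6 and 94.3 for all conservative peaks. Conservative peaks were selected on both replicates, so their presence in both ranked lists is no separate support. Of the 212 tRNA genes with a ranked summit in both replicates' own lists, 112 stood at the higher percentile in replicate 2 and 100 in replicate 1. That is 52.8% higher in replicate 2, against 43.1% of all genes. Sequencing depth could not be compared between them, because the lists hold no read counts.

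Among the 246 tRNA genes with a ranked summit, 202 were not occupied. At 170 of them the strongest ranked summit had a global IDR above 0.05, at 31 it lay between 0.01 and 0.05, and at 1 it was at most 0.01. Their median signal was 35.0. That single gene was Glu-TTC-1-5 on 2R, whose ranked peak had a signal of 134.1, the highest of the 202, with 53.0 in replicate 1 and 81.7 in replicate 2. Its peak is 1 of 148 ranked peaks on the 6 arms that the conservative list lacks although their global IDR is 0.01 or lower. The nearest coding start, that of CG8517, lay 13384 bp from this tRNA gene.

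Leu-AAG-1-2 on 2R was next, with a ranked signal of 87.8 that came mainly from replicate 1, at percentile 92.2 against 69.7 in replicate 2, and a global IDR of 0.14. Met-CAT-1-1 and Arg-TCT-1-1 on 2R shared a ranked summit of 70.74 at an IDR of 0.0132. Lys-CTT-1-12, Cys-GCA-1-2 and Cys-GCA-1-3 on 3L shared one of 70.68 at an IDR of 0.0109, at percentiles 88.9 and 83.2, just outside the threshold of 0.01. At the 44 remaining genes no ranked summit lay within 500 bp.

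Sequence words that bZIP factors are known to bind were rare at the tRNA peaks, as they were at conservative summits in general. Each word was searched on both strands in the window of 50 bases on either side of the summit. TTGCNNAA, part of the sites of C/EBP-like bZIP dimers, occurred in 3 of 32 windows (9.38%), against 9.0% of all conservative summits and 8.3% of the windows 500 bp to their sides. TGATGNAA, TGATGCAAT, TTGCGCAA and TGACGTCA occurred in 0 of 32, where 1.38%, 0.09%, 0.16% and 0.09% of all summits held them. TATCGATA and GAGAGAG, which are not bZIP sites, were also absent from these windows, with 1.21% and 1.43% over all summits. With 32 windows, shares of that size would give less than 1 match.

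The windows of the tRNA peaks had a median GC content of 38.1%, against 31.7% for all conservative summits and 42.6% for the windows to their sides. In the weakest of the 4 equal parts of the conservative list, which held 14 of the 32 tRNA peaks, the median was 37.6%. In the strongest part it was 28.7%. The tRNA value was thus near that of weak peaks in general. The B box word GTTCNANNC was in 6 of the 32 windows (18.8%) and in 2.87% of all summit windows, and the A box in 4 (12.5%) and in 6.42%. Of the 6 windows with the B box word, 5 reached into a tRNA gene, which brings the box with it, and that of His-GTG-1-3 did not.

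The windows of Phe-GAA-1-2 (X:6744263-6744363) and Leu-CAG-1-6 (3L:8066197-8066297) are shown because they hold TTGCNNAA, in capitals, which at Leu-CAG-1-6 reads on the minus strand. The word lies away from the summit base at the centre of either window.
tRNA:Phe-GAA-1-2: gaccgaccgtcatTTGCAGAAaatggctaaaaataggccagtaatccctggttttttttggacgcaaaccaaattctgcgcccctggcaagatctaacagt
tRNA:Leu-CAG-1-6: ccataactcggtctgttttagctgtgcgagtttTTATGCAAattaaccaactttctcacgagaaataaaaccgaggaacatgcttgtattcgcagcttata

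The genes that make and modify tRNAs were described from lists of 95 names, of which 72 matched the annotation. A conservative summit lay within 500 bp of a TSS of 26 of the 72 (36.1%), against 20% of all genes and 23.2% of protein-coding genes. Most of the listed genes are protein-coding. By list these were 4 of 12 subunits of RNA polymerase III, 3 of 9 initiation factors and regulators, 5 of 13 processing genes, 13 of 31 modification genes and 1 of 7 other genes read by RNA polymerase III. The lists were chosen with earlier results of these data known, and the counts are a description.

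The strongest of these peaks was at Tcs5, which encodes the kinase of the KEOPS complex that modifies the base beside the anticodon, with a signal of 2294.3 and rank 6 of the list. RluA-1, a pseudouridine synthase gene, followed with 1905.9 at rank 18, and Elp5, for a subunit of the Elongator complex that modifies wobble uridines, with 1300.5 at rank 50. Trmt6, for a subunit of a tRNA adenine methyltransferase, had 595.6, and Dus2, a dihydrouridine synthase gene, had 521.8. Each of these 5 signals exceeds the 328.4 of Gln-TTG-2-1, and 3 of them exceed the 881.9 of Tyr-GTA-1-8.

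Bdp1 and Brf, which encode the subunits of TFIIIB that are particular to RNA polymerase III, had peaks of 558.3 and 487.7, and Dus3 one of 440.6. The nearest TSS at those peaks belonged to a neighbouring gene, CG6565 at Bdp1, sds22 at Brf and CG10628 at Dus3. No conservative summit lay within 500 bp of a TSS of Maf1, the repressor of RNA polymerase III, or of Trf, which takes the place of TBP at tRNA genes in flies. Among the polymerase subunits, Polr3E had a summit with a signal of 288.5, and the large catalytic subunits Polr3A and Polr3B had none.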

How the data were processed

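ChIP-seq of Xrp1-eGFP was made with an antibody to GFP in whole embryos aged 8 to 24 hours, 2 biological replicates of 1 group, from chromatin sonicated to 200 to 800 bp, per the labels. The hours in the age label disagree with that range and were set aside. The authors deposited peak lists on dm6 from an IDR procedure: a conservative list (7537 peaks, 7534 on the 6 arms), a second list made from both replicates, one per replicate (7520 and 4402), all cut by a threshold, and ranked lists with no threshold (90973 for the replicate comparison). Which aligner and peak caller were used, and how they were set, is not given in the sources used here. As deposited, the signal is the authors' peak signal, whose scaling is not stated and which ranks peaks within 1 list only. The deposited score follows -log2 of the global IDR and the deposited log10 column is -log10 of it. The p column holds -1 throughout and was not used. The files hold no read counts, so depth is unknown. No other column of per-sample values was present.

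Genes and TSSs came from Ensembl release 115 and sequences from the RefSeq copy of the same assembly, release 6. Distances ran from the summit to the nearest edge of a gene. Peaks outside the 6 arms were left out. Shares carry 95% Wilson intervals, with no test between groups, since there is 1 group. Percentiles are positions in a list ordered by signal. The members, lists and words were chosen with earlier results of these data known.

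Named were the tRNA genes with a conservative summit inside, up to 20 occupied genes with no coding TSS within 500 bp and 12 with one, by signal, the largest 3 clusters (ties gave 5), up to 5 unoccupied genes with the highest ranked signal, and up to 8 genes of the lists by signal. Genes of the lists named beyond these, the other genes of shared peaks and the occupied lone and Ala genes fall outside the rule and were named after their values were seen. Alternatives changed the list, distances, anchor, cluster gap and threshold. The work was done in Python 3.11.15 with pandas 2.3.3, matplotlib 3.10.9, SciPy 1.17.1 and NumPy 2.4.6, and the counting was tested on planted summits.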

Additional observations from a re-analysis of the deposited data

How the results depend on the processing

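Of 80 alternative values 49 stayed within 1.5 times the count, or within the interval of the share, and 31 did not. With the list of 1 replicate alone, occupied tRNA genes numbered 24 to 29 (44 with both), those with a coding TSS within 500 bp 6 to 11 (15), those without 18 and 18 (29), summits inside genes 1 to 3 (3), clustered genes occupied 8.88 to 9.81% (15.4%), lone genes 6.58 to 10.5% (14.5%), the percentile of the median signal 25.4 to 48.0 (29.4), and genes with a ranked summit 224 to 237 (246). At a global IDR of at most 0.05 the ranked list gave 76 occupied genes, 57 without a coding TSS, 28.97% of clustered genes and 11 summits inside. Summits within 2000 bp gave 114 occupied genes, 94 without a coding TSS, 42.1% of clustered and 31.6% of lone genes, those within 1000 bp gave 50 without a coding TSS and 22.4% of clustered genes, and those within 250 bp 10.3% of clustered genes. Setting the coding TSS at 1000 bp gave 25 with and 19 without, and at 250 bp 5 with. The second list gave 6 summits inside, and 19 peaks overlapped a gene in any part. The percentile of the median signal was 34.9 in the second list, 34.2 at 1000 bp, 25.9 at 250 bp and 19.1 for peaks away from coding TSSs. Adding, after the data were seen, the ranked peaks that the conservative list lacks gave 45 occupied genes. By construction, wider distances and any overlap can only add genes or summits, and the coding TSS limit moves genes from one class to the other. For the other moves the cause was not tested. No paired analysis was possible because the samples form 1 group.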
